A study of Rattus norvegicus with 7 samples.

Results

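Imprinted genes are expressed mainly from the copy inherited from one parent, and the set described here held 10 of them: Dio3, Ndn, Ube3a, Plagl1, Peg3, Igf2, Cdkn1c, Snrpn, Mest and Grb10. Members were the array probes whose accession belongs to one of these symbols. Of the 10 genes, 8 had a matched probe and each of those 8 passed the filter on dim probes, out of 19991 genes and unnamed probes tested in all. No accession on the array matched Peg3 or Grb10, so these genes were not analysed here. Gene expression was measured on 1-colour Agilent arrays in total RNA from ground cerebellum of female Wistar rats aged 21 days. Pups of the control group (CTRL, n = 4) were born to dams on a standard diet. Pups deficient in methyl donors (MDD, n = 3) had dams given food poor in folate and vitamin B12 and reduced in choline, which began 1 month before pregnancy and ended with weaning at 21 days. No label gives the dam or litter of a pup, so p-values measure the spread between these biological replicates.

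In imprinted domains, DNA methylation laid down in the egg or the sperm marks a control region, and the mark decides which parental copy is active. Folate, vitamin B12 and choline feed the supply of methyl groups from which such marks are copied at each cell division. Several imprinted genes act on fetal and postnatal growth and on the brain: paternally expressed Igf2 promotes growth, maternally expressed Cdkn1c restrains cell division, and the region with Ndn, Snrpn and Ube3a corresponds to that of Prader-Willi and Angelman syndromes in people. Expression arrays do not tell the parental copies apart and do not measure methylation.

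Values are log2 intensities relative to the 75th percentile of the same array, which ranged from 1136 to 2085 intensity units. On each array 74.1% to 79.6% of spots stood well above background, with 0 saturated. Arrays correlated at 0.990 to 0.994 within CTRL and at 0.985 to 0.989 within MDD. All 15 cerebellar markers were measured on all 7 arrays, with 1 higher and 5 lower in MDD, while their summed signal was 252 to 285 times the 75th percentile in CTRL and 281 to 336 times in MDD. Among all tested, 12.6% passed as higher in MDD and 7.96% as lower. Of 12 microglial markers 7 were higher and 1 lower. The summed signal of the microglial markers was 9.58 to 10.3 times the 75th percentile in CTRL and 13.6 to 18.8 times in MDD. The part of this shift in the results on imprinted genes was not tested. In RNA from whole tissue, fewer cells of a type and less RNA per cell cannot be told apart.

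The promoters of the 4 members that passed the test are shown because CpG sites, written in capitals, are where DNA methylation sits. RefSeq promoters of build GRCr8, from 250 bases before to 50 after the gene start and written 5′ to 3′ on the strand of the gene, were found for 9 of the 10 members.
Dio3 (chr6:135106822-135107121, + strand): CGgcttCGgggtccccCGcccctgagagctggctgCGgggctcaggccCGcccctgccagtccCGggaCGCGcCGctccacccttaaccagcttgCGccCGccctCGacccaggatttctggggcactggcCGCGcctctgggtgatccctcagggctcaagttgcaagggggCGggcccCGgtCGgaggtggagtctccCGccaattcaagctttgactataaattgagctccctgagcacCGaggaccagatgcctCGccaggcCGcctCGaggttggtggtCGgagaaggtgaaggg
Ndn (chr1:125260809-125261108, + strand): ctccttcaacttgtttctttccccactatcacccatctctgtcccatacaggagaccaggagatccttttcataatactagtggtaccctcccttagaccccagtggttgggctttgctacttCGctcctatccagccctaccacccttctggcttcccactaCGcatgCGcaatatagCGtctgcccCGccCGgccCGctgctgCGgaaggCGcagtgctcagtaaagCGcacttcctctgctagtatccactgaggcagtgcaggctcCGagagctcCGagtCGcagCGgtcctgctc
Plagl1 (chr1:9297214-9297513, + strand): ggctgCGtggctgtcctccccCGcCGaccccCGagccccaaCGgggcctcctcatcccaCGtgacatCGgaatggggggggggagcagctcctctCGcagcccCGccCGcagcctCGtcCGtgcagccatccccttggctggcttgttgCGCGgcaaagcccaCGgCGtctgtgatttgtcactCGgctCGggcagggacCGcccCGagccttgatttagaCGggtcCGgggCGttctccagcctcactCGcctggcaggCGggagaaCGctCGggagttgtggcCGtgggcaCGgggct
Ube3a (chr1:119205898-119206197, + strand): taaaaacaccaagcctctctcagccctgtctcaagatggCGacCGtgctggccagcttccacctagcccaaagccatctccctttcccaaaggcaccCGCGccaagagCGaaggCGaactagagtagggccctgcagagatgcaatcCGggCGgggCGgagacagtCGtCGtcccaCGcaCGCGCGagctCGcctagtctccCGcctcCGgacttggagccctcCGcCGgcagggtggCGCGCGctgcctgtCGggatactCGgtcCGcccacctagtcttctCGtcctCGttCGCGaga
Dio3 had 23 CpG sites in this window, Ndn 14, Plagl1 29 and Ube3a 30. Over all 33469 promoters of this length the median was 7 and the upper quartile 19, so Ndn lay between the median and the upper quartile and the others above it. Among members that did not pass, Mest had 18, Snrpn 11, and the 2 listed Igf2 promoters 19 and 7. The letters TGCCGC, the core of the motif bound by the imprint-protecting protein Zfp57, were searched on both strands. They occurred in a promoter of 4 of the 9 members (Plagl1, Igf2, Snrpn and Grb10) and in 11.7% of all promoters. The first count is by gene, with 2 promoters for Igf2, and the second by promoter. The letters include a CpG, and promoters were not matched for their number of CpG sites, so no excess can be read from these values. These windows lie at gene starts and were not compared with the control regions of the imprinted domains, so any overlap is unknown.

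Of the 8 measured members, Dio3 and Ndn rose in MDD, Plagl1 and Ube3a fell, and Igf2, Snrpn, Mest and Cdkn1c did not pass the test. The 4 calls compare with 20.6% of all genes and probes tested that passed in either direction, 12.6% higher and 7.96% lower. Members were chosen with earlier results of these data known, so an excess cannot be read from this comparison. Of the 8 measured members, the same 4 that passed had CTRL and MDD arrays fully separated, as had 36.6% of all tested (19.9% higher and 16.7% lower). Without CTRL 1, CTRL 3, CTRL 4 or MDD 1 only 1 member passed, without CTRL 2 or MDD 3 there were 2, and without MDD 2 there were 4. The median log2 difference over the 8 members was -0.01, and over all tested it was -0.03. The members thus moved in opposite directions, and their median lay beside that of the whole array.

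**Figure D1:**
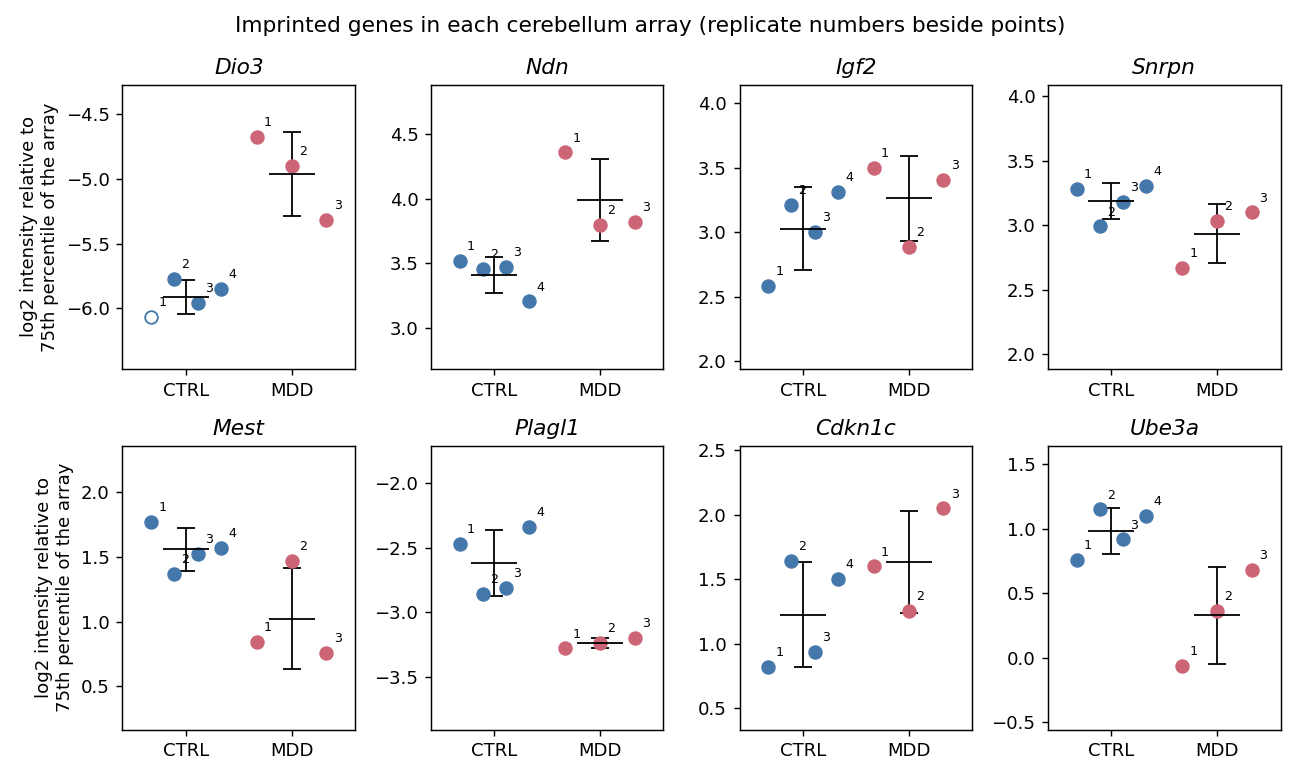
Log2 intensity relative to the 75th percentile of the array (vertical axis, each panel spanning the same range) for the 8 measured imprinted genes in the 4 CTRL and 3 MDD arrays, with replicate numbers; bars are the mean and SD, and an open point was not well above background. MDD arrays of Dio3 (-5.32 to -4.67) and Ndn (3.80 to 4.36) lie above all CTRL arrays, those of Plagl1 and Ube3a below, and the other panels overlap.

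Dio3 encodes the deiodinase that inactivates thyroid hormone and is expressed preferentially from the paternal copy. Its relative log2 intensity was -6.07, -5.77, -5.96 and -5.85 in CTRL replicates 1 to 4 and -4.67, -4.90 and -5.32 in MDD replicates 1 to 3. Every MDD array lay above every CTRL array. The rise was 1.93-fold (log2 0.95, SE 0.17, adjusted p = 0.0122), and the call was kept when any 1 of the 7 arrays was left out (log2 0.81 to 1.13, adjusted p = 0.0166 to 0.0441). Dio3 was nevertheless a dim probe with 2 spots. It was not well above background in CTRL 1, and in CTRL 3 and CTRL 4 only 1 of the 2 spots was. Before scaling, the processed intensity was 19.5, 38.5, 30.7 and 28.4 units in CTRL and 64.9, 53.3 and 28.5 units in MDD, so that MDD 3 lay within the CTRL range. The size depended on the treatment of background, at 0.36 with normexp correction (adjusted p = 0.0947) and 0.39 in the authors' deposited table (adjusted p = 0.0412).

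Ndn encodes necdin, a growth suppressor of postmitotic neurons made from the paternal copy. Its probe was spotted 10 times, and all spots were well above background. Relative log2 intensity was 3.52, 3.45, 3.47 and 3.20 in CTRL and 4.36, 3.80 and 3.82 in MDD. MDD 1 stood highest, and the groups did not overlap. The rise was 1.50-fold (log2 0.58, SE 0.17, adjusted p = 0.0440). The value fell to 0.23 with quantile normalization (adjusted p = 0.326) and 0.21 in the authors' deposited table (adjusted p = 0.340), and it was -0.04 once the dependence on gene length and signal was removed from each array (adjusted p = 0.898). Ndn spans 1600 bases, shorter than all but 4.05% of named genes measured. The call was also lost without CTRL 1, 2, 3 or 4, MDD 1 or MDD 3 (adjusted p = 0.0553 to 0.110) and kept without MDD 2 (adjusted p = 0.0362).

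Plagl1 encodes a zinc finger transcription factor that can arrest the cell cycle and is expressed from the paternal copy. Relative log2 intensity was -2.47, -2.86, -2.81 and -2.34 in CTRL and -3.28, -3.24 and -3.20 in MDD. MDD arrays lay close together (SD 0.04) and below each control. Plagl1 fell 1.54-fold (log2 -0.62, SE 0.15, adjusted p = 0.0293). A second, dimmer probe of the gene gave -4.68, -4.30, -4.68 and -4.29 in CTRL and -5.17, -4.81 and -5.16 in MDD. Fitted among all kept probes, it fell too (log2 -0.56, SE 0.16, adjusted p = 0.0441), where 20.2% of probes passed. The brighter probe gave -0.39 with normexp (adjusted p = 0.101) and -0.36 in the authors' deposited table (adjusted p = 0.0717). Without CTRL 1, CTRL 3, CTRL 4, MDD 1 or MDD 3 its call was lost (adjusted p = 0.0523 to 0.0753), and without CTRL 2 or MDD 2 it was kept (adjusted p = 0.0424 and 0.0450).

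Mest, a paternally expressed gene of the alpha/beta hydrolase fold family, had relative log2 intensities of 1.77, 1.37, 1.53 and 1.57 in CTRL and 0.84, 1.47 and 0.76 in MDD. MDD 1 and MDD 3 lay below every control and MDD 2 within their range. The difference was -0.54 (SE 0.19, 95% interval -0.98 to -0.10, adjusted p = 0.0790). It passed without MDD 2 (log2 -0.76, adjusted p = 0.0139), in the authors' deposited table (log2 -0.62, adjusted p = 0.0321) and with the trend with gene length and signal removed (log2 -0.75, adjusted p = 0.0488). Mest did not pass in the other 15 of 18 alternatives. Among these were the fits without MDD 1 (log2 -0.45, adjusted p = 0.187) and without MDD 3 (log2 -0.40, adjusted p = 0.198).

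Snrpn encodes the spliceosomal protein SmN of neurons, and its transcript also carries Snurf. Relative log2 intensity was 3.28, 2.99, 3.18 and 3.30 in CTRL and 2.67, 3.03 and 3.1 in MDD. The groups overlapped, and the difference was -0.25 (SE 0.15, 95% interval -0.59 to 0.08, adjusted p = 0.233). In the authors' deposited table it was -0.49 and passed (adjusted p = 0.0372). A probe assigned to Snurf differed by 0.09 (SE 0.14, adjusted p = 0.663), and a second Snurf probe by -0.06 (adjusted p = 0.770 among all kept probes). Since the genes share a transcript, their separate values are uncertain.

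Igf2 encodes insulin-like growth factor 2, which in the brain is made mainly by the choroid plexus and the meninges. Relative log2 intensity was 2.58, 3.21, 3.00 and 3.31 in CTRL and 3.50, 2.88 and 3.40 in MDD. CTRL 1 was lowest and MDD 1 highest, and the groups overlapped. The difference was 0.24 (SE 0.22, 95% interval -0.26 to 0.73, adjusted p = 0.448), and its sign turned with quantile normalization (-0.03), in the authors' deposited table (-0.04) and with the row of the slide as a block (-0.05). The summed signal of 13 meningeal markers was 13.2, 19.4, 18.4 and 22.1 times the 75th percentile in CTRL and 21.3, 18.3 and 21.4 times in MDD. The arrays with the lowest Igf2, CTRL 1 and MDD 2, also had the lowest meningeal sums. Of these 13 markers 1 was higher and 0 lower by limma (3 and 1 at an unadjusted p under 0.05). Of 11 measured choroid plexus markers 0 passed (3 higher and 0 lower at an unadjusted p under 0.05), with a summed signal of 103 to 141 in CTRL and 119 to 280 in MDD. That sum is mostly the signal of Ttr, by far the brightest of them (mean log2 6.80 in CTRL and 7.52 in MDD). The median log2 difference of the 11 markers was 0.15. The part of these cells in the Igf2 values was not tested.

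Cdkn1c and Ube3a are the maternally expressed members, Ube3a being so in neurons. Cdkn1c encodes the cyclin-dependent kinase inhibitor p57. Its brighter probe read 0.82, 1.64, 0.94 and 1.50 in CTRL and 1.60, 1.25 and 2.05 in MDD. Highest within each group were CTRL 2 and 4 and MDD 1 and 3, the same arrays as for Igf2 and for the meningeal and choroid plexus sums. Igf2 lies in the same chromosomal cluster, as does H19 (described below), which among controls was highest in CTRL 2 and 3. The part of these cells in the Cdkn1c values was not tested. The difference was 0.41 (SE 0.26, 95% interval -0.18 to 1.0, adjusted p = 0.270), and -0.0056 with the trend with gene length and signal removed. A second Cdkn1c probe differed by 0.43 (SE 0.22, adjusted p = 0.188 among all kept probes), in the same direction.

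Ube3a encodes a ubiquitin ligase whose loss from the maternal copy causes Angelman syndrome. Its probe had 10 spots, all well above background. Relative log2 intensity was 0.75, 1.15, 0.92 and 1.10 in CTRL and -0.06, 0.36 and 0.68 in MDD. MDD 3 lay just below the lowest control and MDD 1 furthest from it. Ube3a fell 1.57-fold (log2 -0.65, SE 0.19, adjusted p = 0.0451). The difference was -0.69 with quantile normalization, -0.64 with normexp and -0.64 in the authors' deposited table, each with an adjusted p between 0.0318 and 0.0408. With the trend with gene length and signal removed it was -0.49 (adjusted p = 0.135), and Ube3a is longer than 86.4% of named genes. The call was lost without CTRL 1, 2, 3 or 4, MDD 1 or MDD 2 (adjusted p = 0.0622 to 0.108) and kept without MDD 3 (adjusted p = 0.0306).

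**Figure D2:**
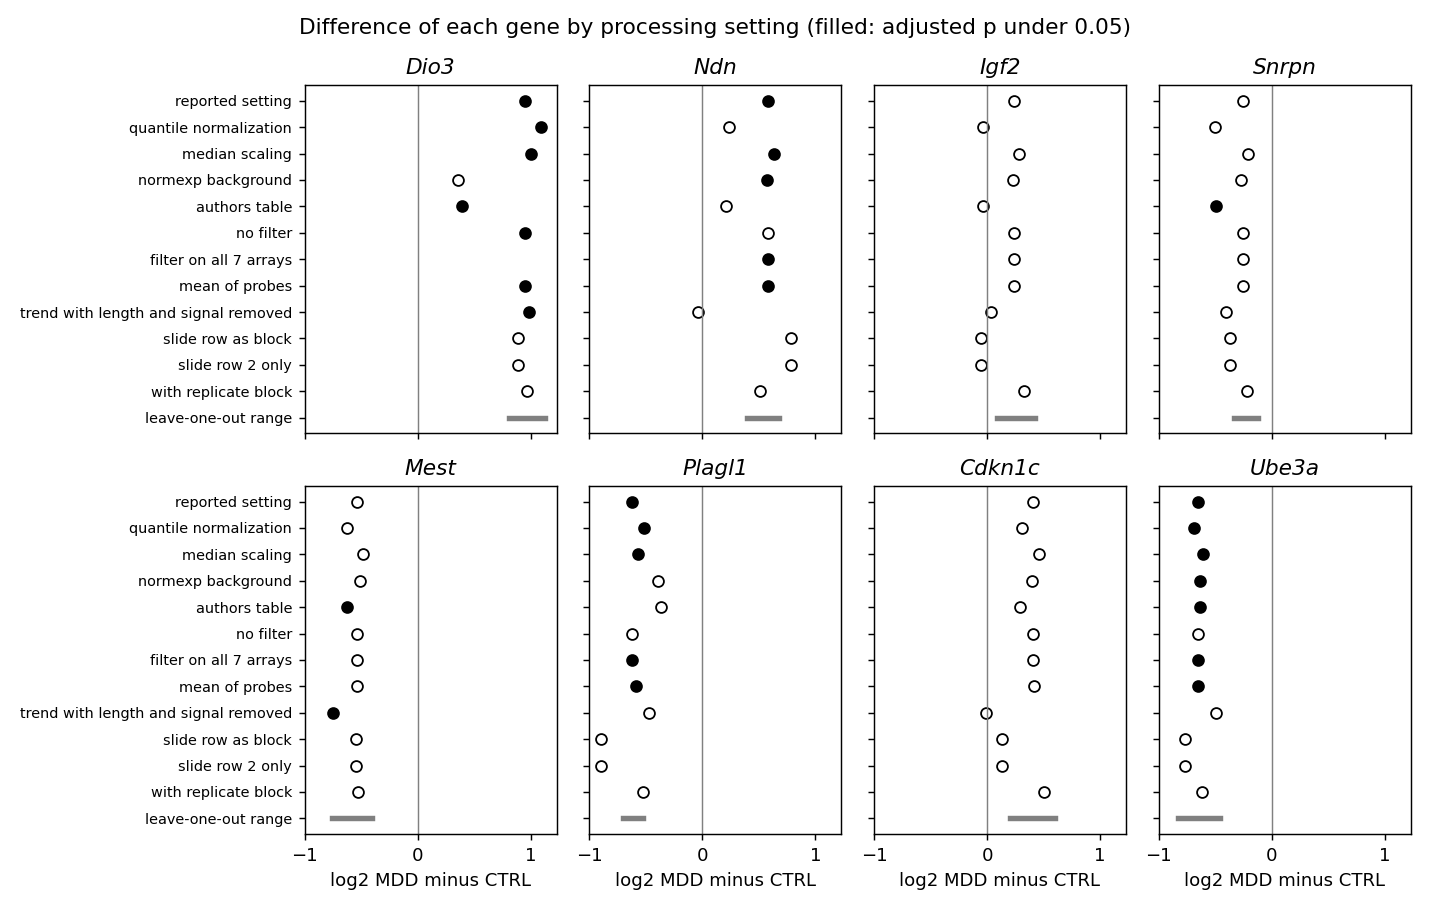
Log2 MDD minus CTRL (horizontal axis) of each of the 8 measured imprinted genes under the reported setting and 11 alternatives, one row each; filled points have an adjusted p under 0.05, and grey bars span the values with 1 array left out. Dio3 stays above 0 (0.36 to 1.13) and Plagl1, Mest, Snrpn and Ube3a below 0 in every row that gives a value, while Ndn, Igf2 and Cdkn1c have a value below 0 in at least 1 row.

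No label names the row of the slide, which was read here from a number in the array barcode. By that reading all MDD arrays lay in row 2, together with CTRL 4, and the other controls in row 1. With the row as a block, the differences were 0.89 for Dio3, 0.79 for Ndn, -0.90 for Plagl1 and -0.77 for Ube3a, with adjusted p of 0.140 to 0.223. Within row 2 alone they were the same, since CTRL 4 was then the only control (adjusted p = 0.412 to 0.447). Because CTRL and MDD arrays of these 4 genes were already separated, the direction against CTRL 4 alone was given by that. By limma, 0 members passed in either fit (4 and 2 at an unadjusted p under 0.05).

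Paternally and maternally expressed members did not separate by direction. Of the 6 paternally expressed genes measured, 2 rose and 1 fell, with a median log2 difference of -0.01 and a range of -0.62 to 0.95. Of the 2 maternally expressed genes, 0 rose (0 at an unadjusted p under 0.05) and 1 fell, with a median of -0.12. Grb10, which is maternally expressed in most tissues but paternally in neurons, was not analysed here. The paternal median depended on the scaling, at -0.27 with quantile normalization and -0.20 in the authors' deposited table, so that it lay above the maternal one as reported and below it in these (-0.19 and -0.17). No test of the difference between the classes was made.

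The members sit in clusters with other imprinted genes. In the Prader-Willi and Angelman region, Ndn rose and Ube3a fell. Other measured genes of the region gave differences of -0.25 for Snrpn and 0.09 for Snurf (both described above), 0.25 for Peg12 (adjusted p = 0.308) and -0.71 for the maternally expressed phospholipid transporter gene Atp10a (SE 0.26, adjusted p = 0.0838). The nearest measured genes on either side of Cdkn1c were Slc22a18 and Kcnq1. Slc22a18, a maternally expressed transporter gene, rose (log2 0.54, SE 0.16, adjusted p = 0.0467). The potassium channel gene Kcnq1 differed by -0.26 (adjusted p = 0.175), with a second probe at 0.33. Beside Mest, Copg2 differed by -0.66 (SE 0.23, adjusted p = 0.0776) and by -0.39 without MDD 1, and its second probe by -0.34 (adjusted p = 0.361 among all kept probes). Beside Igf2, Ins2 differed by -0.18 (adjusted p = 0.533), and beside Dio3, Dlk1 by 0.41 (SE 0.40, adjusted p = 0.466), or by -0.78 with the row of the slide as a block. In the cluster of Peg3, to which no accession was matched, the paternally expressed Usp29 differed by -0.53 (SE 0.24, adjusted p = 0.140) and by -0.22 without MDD 1. On the other side of Peg3, Zim1 differed by 0.09 (SE 0.34, adjusted p = 0.871). Its probe was well above background in 2 CTRL arrays and 1 MDD array.

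H19, a maternally expressed non-coding RNA that shares enhancers with Igf2, was singled out after its values were seen. Its relative log2 intensity was -4.25, 0.42, 0.65 and 0.06 in CTRL and -3.41, -3.53 and -2.63 in MDD. CTRL 1 was the lowest of all arrays, while the other controls lay above all MDD arrays. With all 7 arrays the difference was -2.41 (SE 1.08, 95% interval -4.89 to 0.06, adjusted p = 0.137). Without CTRL 1, an array chosen after its value was seen, it was -3.57 (adjusted p = 0.0190), and without any 1 of the others it was -2.69 to -1.93 (adjusted p = 0.199 to 0.255). The probe was well above background on every array. Igf2 was lowest in CTRL 1 as well, while over the other arrays it overlapped between CTRL (3.00 to 3.31) and MDD (2.88 to 3.50).

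**Figure D3:**
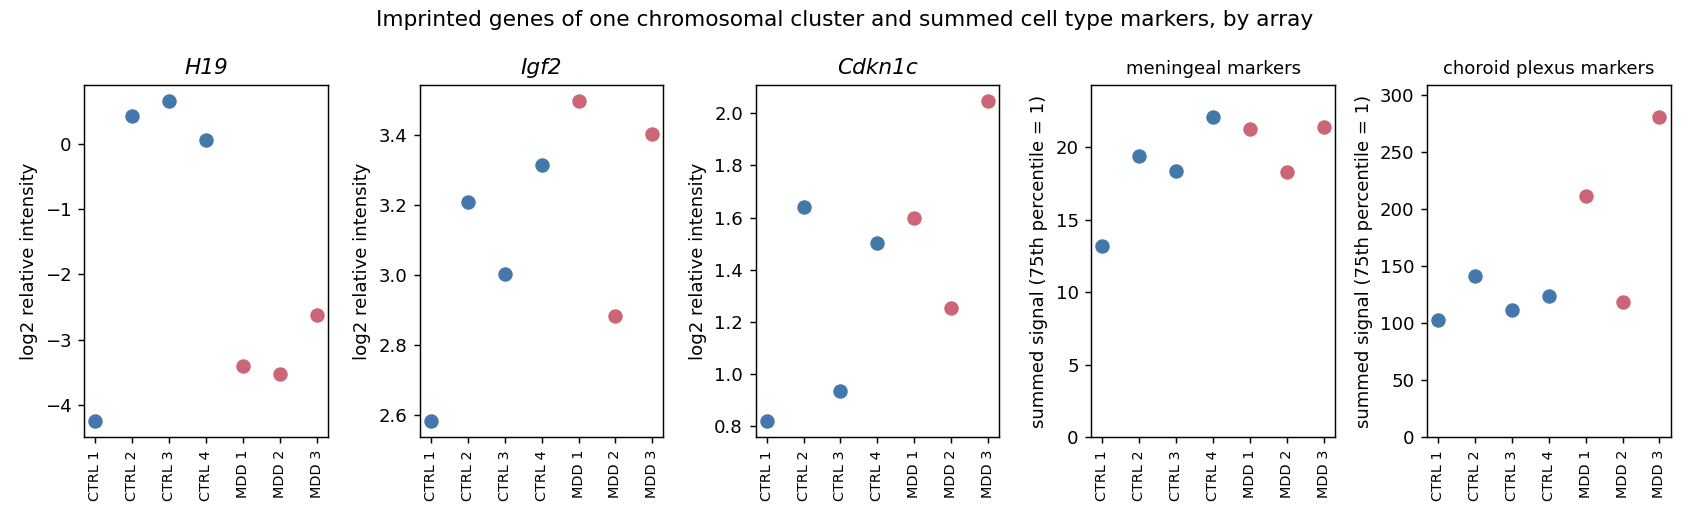
Values in each of the 4 CTRL and 3 MDD arrays of H19, Igf2 and Cdkn1c (log2 intensity relative to the 75th percentile) and of the summed signal of 13 meningeal and 11 choroid plexus markers (75th percentile = 1, axis from 0). H19 in CTRL 1 (-4.25) lies with the MDD arrays, and CTRL 1 also has the lowest Igf2 (2.58), Cdkn1c (0.82) and meningeal sum (13.2).

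A wider list of 56 genes known to be imprinted in at least 1 rodent tissue, some only in placenta, had 37 measured. Of these, 4 rose and 2 fell, with a median log2 difference of -0.05. Among 13 paternally expressed genes 0 rose and 1 fell by limma (2 and 2 at an unadjusted p under 0.05), with a median of -0.16. The gene that fell was Rasgrf1, a Ras exchange factor of neurons (log2 -1.22, SE 0.31, adjusted p = 0.0307), whose dim probe exceeded background clearly in 1 of 3 MDD arrays. It gave -0.20 with normexp and -0.34 in the authors' deposited table. Nnat, a paternally expressed proteolipid gene, read 4.22, 4.33, 4.29 and 4.65 in CTRL and 4.79, 4.84 and 5.61 in MDD and did not pass (log2 0.71, SE 0.22, adjusted p = 0.0518). The difference was 0.25 with quantile normalization and in the authors' deposited table, 0.092 with the trend with gene length and signal removed and 0.44 without MDD 3, while it passed without MDD 2 (log2 0.83, adjusted p = 0.0455). A second Nnat probe gave 0.63 (adjusted p = 0.116 among all kept probes). Nnat is named here after its values were seen.

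Among 24 maternally expressed genes of that list, 4 rose and 1 fell, with a median of 0.05. Trappc9, of a vesicle tethering complex, rose 1.37-fold (SE of log2 0.11, adjusted p = 0.0247), Tssc4 1.42-fold (SE 0.12, adjusted p = 0.0253) and the tetraspanin gene Cd81 1.39-fold (SE 0.12, adjusted p = 0.0287). With quantile normalization the log2 differences were 0.22 for Trappc9 (adjusted p = 0.165), 0.29 for Tssc4 (adjusted p = 0.0861) and 0.21 for Cd81 (adjusted p = 0.177). In the authors' deposited table Trappc9 was 0.22 (adjusted p = 0.122) and Cd81 0.20 (adjusted p = 0.156). With the trend with gene length and signal removed, Tssc4 was 0.019 (adjusted p = 0.917) and Cd81 0.26 (adjusted p = 0.134). Slc22a18, described above, was the other gene that rose, and its call was lost with normexp (log2 0.45, adjusted p = 0.0541). Gatm, which makes the precursor of creatine, fell 1.53-fold (log2 -0.61, SE 0.13, adjusted p = 0.0173), and its second probe differed by -0.36 (adjusted p = 0.108 among all kept probes). Over the 37 genes the number that passed was 2 without CTRL 1, 3 without CTRL 2, 0 without CTRL 3 or CTRL 4 (11 and 12 at an unadjusted p under 0.05), 2 without MDD 1, 8 without MDD 2 and 3 without MDD 3. In these fits 1012 (without CTRL 4) to 5276 (without MDD 2) of all 19991 tested passed. The share that passed, 6 of 37, lay near the 20.6% of all tested.

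**Figure D4:**
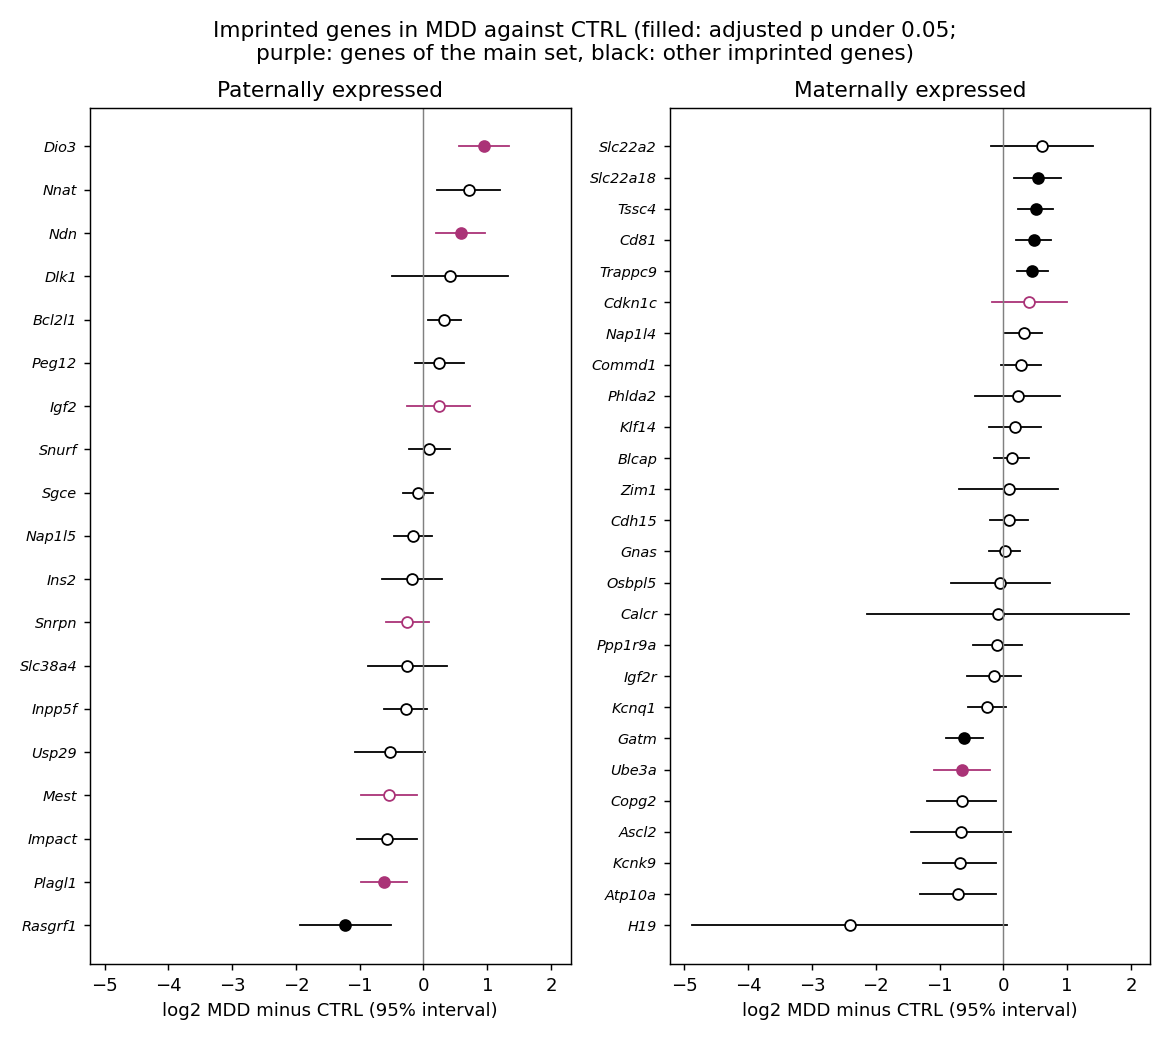
Log2 MDD minus CTRL with its 95% interval (horizontal axis) for the measured paternally expressed genes (left, 6 of the main set in purple and 13 others in black) and maternally expressed genes (right, 2 and 24); filled points have an adjusted p under 0.05. Both classes spread to both sides of 0, with medians of -0.01 and -0.12 in the main set and -0.16 and 0.05 among the others, and H19 has the widest interval (-4.89 to 0.06).

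Of 16 measured genes that write, protect or read imprints, 1 rose and 2 fell, a share near the 20.6% of all tested that passed. Mbd3, a subunit of the NuRD complex, rose (log2 0.44, SE 0.12, adjusted p = 0.0378). Tet3, which oxidises methylated cytosine, fell (log2 -0.59, SE 0.15, adjusted p = 0.0319), as did Dppa3, known for guarding maternal methylation in the zygote (log2 -0.73, SE 0.22, adjusted p = 0.0455). A second Dppa3 probe gave -0.47 (adjusted p = 0.170 among all kept probes). With the trend with gene length and signal removed, Mbd3 was 0.25 (adjusted p = 0.163) and Tet3 -0.36 (adjusted p = 0.105), and with normexp Dppa3 was -0.39 (adjusted p = 0.151). The median of the list was -0.36, with 12 of 16 means lower in MDD. Over all tested the median was -0.03, and 47.3% of means were higher in MDD. At an unadjusted p under 0.05 by limma the list had 9 genes, and 3 with the trend with gene length and signal removed. Of all 19991 tested, 7792 and 6852 were under it in the same fits. Leaving out CTRL 1, 2, 3 or 4, MDD 1 or MDD 3 left 0 calls by limma (4 to 7 at an unadjusted p under 0.05), and leaving out MDD 2 gave 7. Of all 19991 tested, 1012 to 2651 passed in the former fits and 5276 without MDD 2. Dnmt1, the maintenance methyltransferase, was not analysed here.

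On the insulin-like growth factor axis, which carries the signal of Igf2, 2 of 14 measured genes rose and 2 fell, with a median of -0.13, against 12.6% higher and 7.96% lower among all tested. The receptor gene Igf1r fell (log2 -0.57, SE 0.15, adjusted p = 0.0318), and gave -0.29 with the trend with gene length and signal removed (adjusted p = 0.163). The adaptor gene Irs1 fell too (log2 -0.69, SE 0.20, adjusted p = 0.0454). Its value was -0.17 with normexp (adjusted p = 0.484) and -0.28 in the authors' deposited table (adjusted p = 0.0918), and its second probe differed by -0.48 (adjusted p = 0.0621 among all kept probes). Akt1, a kinase downstream of the receptor, rose (log2 0.39, SE 0.11, adjusted p = 0.0456). The Akt1 call was lost when any 1 of the 7 arrays was left out (log2 0.34 to 0.42, adjusted p = 0.0504 to 0.121). Igf2bp2, an RNA-binding protein gene, rose on its brighter probe (log2 1.0, SE 0.29, adjusted p = 0.0455), whereas the other probe gave -0.07 (adjusted p = 0.695 among all kept probes). Counts were 0 without CTRL 1, CTRL 3, CTRL 4 or MDD 3 (5 to 7 at an unadjusted p under 0.05), 1 without CTRL 2 or MDD 1, and 5 without MDD 2. In these fits 1012 (without CTRL 4) to 5276 (without MDD 2) of all 19991 tested passed.

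On the thyroid hormone axis, to which Dio3 belongs, 1 of 14 measured genes rose and 0 fell (2 higher and 3 lower at an unadjusted p under 0.05), with a median of -0.13. Among all tested, 20.6% passed, and 7792 of 19991 had an unadjusted p under 0.05. Crym, which binds thyroid hormone in the cytosol, read -0.76, -0.43, -1.46 and -0.55 in CTRL and 0.20, 0.25 and 0.99 in MDD, a 2.43-fold rise (log2 1.28, SE 0.29, adjusted p = 0.0213). The groups did not overlap. The Crym call was lost without CTRL 4 (adjusted p = 0.0516) and without MDD 3 (adjusted p = 0.0561).

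For the 3 members with the smallest p, the named genes most alike over the 7 arrays were found by Pearson's r. Genes without a value on every array, or with a symbol beginning LOC or RGD, were left out. The result is a description, since the highest of many genes were taken and the group difference enters r. For Dio3 the most alike were Trim35, Parl and Nelfb (r = 0.988, 0.987 and 0.987). For Plagl1 they were Drc1, Nras and G2e3 (r = 0.987, 0.985 and 0.973), and for Ndn they were Atp5pf, Smyd3 and Nat8f5 (r = 0.995, 0.994 and 0.989). None of these 9 genes is on the lists of imprinted genes used here.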

How the data were processed

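Total RNA was labelled with Cy3 and hybridised to arrays, 4 CTRL and 3 MDD. Per the file headers, the deposited scanner tables hold linear intensities and flags (scored 0 or 1) from Feature Extraction 10.7.3.1. The processed intensity is background-subtracted and not normalized between arrays. A further deposited table holds the authors' normalized intensities, by a method not given in the sources used here, with columns that name the group and not the sample. It pairs probes with accessions and with no symbol, as the scanner files do. Accessions were matched without version to RefSeq genes of GRCr8, which named 18355 of 30367 probes.

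Values are log2 processed intensity minus the array's 75th percentile. Outlier spots were left out (1 spot of Ube3a), spots of a probe averaged, and probes kept where 50% of their spots exceeded background by the scanner flag in 3 or more of 7 arrays, 22255 in all. The brightest kept probe stood for a gene. MDD was set against CTRL by limma 3.58.1 (R 4.3.3, two-sided), with Benjamini-Hochberg adjustment over 19991 genes and unnamed probes and a threshold of 0.05. Intervals are 95% from that fit. On simulated arrays of this design with 19991 genes, the fit found 58 of 100 genes with a log2 change of 1. It found 3 of 100 with a change of 0.5, and made 1 false call at each size. Only 100 genes were changed at each size, whereas 4118 passed in the data, so these rates need not hold for the data.

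Members and lists were chosen with earlier results of these data known. Named genes are all members with every probe, of the wider imprinted list the genes that passed, of the other lists up to 6 that passed, and the 3 most alike genes of the 3 members with the smallest p. Cluster neighbours, H19 and Nnat were added after values were seen. Replicate numbers did not pair samples. Marker lists of astrocytes (1 of 10 higher, 0 lower), oligodendrocytes (0 of 11 higher, 1 lower) and endothelium (1 of 11 higher, 0 lower) were also counted by limma (2 higher and 1 lower, 0 and 1, and 1 and 0 at an unadjusted p under 0.05). Normexp (offset 50) used the median signals, since the scanner tables used here hold no mean signal column.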

Additional observations from a re-analysis of the deposited data

Results flagged for a closer look

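Of the 32 genes reported by name from the tables of values per array, 3 had 1 control far from the other controls relative to their range, where chance flags about 1 in 20 groups chosen without regard to their values. H19 and Copg2 were added to the named genes after their values were seen, so the number is not to be read against that rate. H19 was -4.25 in CTRL 1, with the next control at 0.06 and the highest at 0.65. Irs1 was -5.10 in CTRL 2, with the next at -4.92 and the highest at -4.89. Copg2 was -1.48 in CTRL 3, with the next at -0.98 and the highest at -0.94.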

How the results depend on the processing

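Dio3 kept its direction in all 17 alternatives that gave a value and its call in 13, and Plagl1 and Ube3a kept their direction in all 18 and lost their call in 12 and 11, Plagl1 also with the trend with gene length and signal removed (-0.47, adjusted p = 0.0687). Ndn kept its call in 5 of 18. Members that passed numbered 2 with normexp, 1 with no filter, 2 with the trend with gene length and signal removed, and 0 with the slide row as a block, within row 2 or with the replicate block (4, 2 and 4 at an unadjusted p under 0.05 by limma), and 1 to 4 with 1 array left out. All genes that passed numbered 4118, against 1597 with no filter, 1 with the row as a block, 7 within row 2, 0 with the replicate block (6222 at an unadjusted p under 0.05 by limma) and 1012 to 5276 with 1 array left out. Higher calls made up 61.3% of them, 72.6% with normexp and 74.7% with no filter. The wider imprinted list had 1 call with no filter, 0 with the row as a block, within row 2 or with the replicate block (5, 3 and 13 unadjusted), and 0 to 8 with 1 array left out. Imprint genes that passed numbered 1 with quantile normalization, 0 with normexp or no filter (8 and 8 unadjusted), 1 with the trend removed, 0 with the row as a block, within row 2 or with the replicate block (3, 1 and 4 unadjusted), and 0 to 7 with 1 array left out. For the growth factor axis the counts were 2 with normexp, 0 with no filter (6 unadjusted), 1 with the trend removed, 0 with the row as a block, within row 2 or with the replicate block (4, 3 and 5 unadjusted), and 0 to 5 with 1 array left out. For the thyroid axis they were 4 with quantile normalization, 2 with median scaling, 2 with normexp, 4 in the authors' deposited table, 0 with no filter (5 unadjusted), 3 with the filter on all 7 arrays, 2 with the mean of probes, 3 with the trend removed, 0 with the row as a block, within row 2 or with the replicate block (2, 2 and 3 unadjusted), and 0 to 4 with 1 array left out. The paternal median was -0.27 with quantile normalization, -0.20 in the authors' deposited table, -0.25 with the filter on all 7 arrays, which left out Dio3, -0.22 with the trend removed, and -0.21 with the row as a block or within row 2. It was -0.09 to 0.06 with 1 array left out, and the maternal median -0.31 to -0.01.

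Signs turned, with no value passing, for Ndn (-0.042) and Cdkn1c (-0.0056) with the trend removed. Igf2 was -0.033 with quantile normalization, -0.040 in the authors' deposited table and -0.051 with the row as a block or within row 2. Snurf was -0.16 with quantile normalization, -0.14 in the authors' deposited table, -0.049 with the trend removed and -0.040 with the row as a block or within row 2, and -0.0090 (without MDD 3) to 0.15 with 1 array left out. Ins2 was 0.025 with normexp and 0.067 with the trend removed, Kcnq1 0.037 with the mean of probes and 0.028 with the trend removed, and Dlk1 -0.78 with the row as a block or within row 2. The cause was not tested. The replicate block used replicates 1 to 3 of each group. Same-numbered samples deviated with correlations of 0.09, -0.18 and 0.22, and 1 of 3 MDD arrays correlated best with the control of its own number, so the numbers were not taken to pair samples. Dim probes such as Dio3 and Rasgrf1 are limited by signal over background.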
